A study of Homo sapiens with 30 samples.

Results

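MR49F is a human prostate cancer line that resists the antiandrogen enzalutamide, and V16D is the castration-resistant line it came from. The data compared here are the 3 MR49F and the 3 V16D samples that received vehicle (0.1% DMSO) for 24 h in RPMI-1640 with 10% fetal bovine serum, 6 of the 30 samples of the series. They were chosen by their cell line and treatment labels alone, and no drug was added in either group. Both lines had been without enzalutamide for 96 h before vehicle was added. The growth conditions of the samples were thus the same, but MR49F is otherwise maintained in 10 μM enzalutamide. Differences between the lines and effects of withdrawing the drug from MR49F cannot be told apart. Both lines descend from LNCaP, a line from a prostate cancer lymph node metastasis. MR49F was derived through tumours in castrated mice under long-term enzalutamide. Each condition is a single cell line, so differences that accompany resistance and differences that arose by chance in the history of a line cannot be told apart. The samples that serve as a check are 3 MR49F and 3 V16D samples treated with 10 μM enzalutamide for 24 h in the same serum. MR49F samples treated with vehicle or 1 nM dihydrotestosterone (DHT) in charcoal-stripped serum, which holds little androgen, are another check. The levels of gained and lost genes are also given over all MR49F samples in stripped serum. Those include samples with 10 μM enzalutamide, with 500 nM JQ-1, a BET bromodomain inhibitor, and with JQ-1 plus DHT or enzalutamide.

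Androgens such as testosterone and DHT maintain the secretory luminal cells of the prostate and turn on genes such as KLK3, which encodes prostate-specific antigen, with help from factors such as FOXA1 and HOXB13. Prostate cancers keep this dependence, and enzalutamide blocks the response to androgen. Fetal bovine serum supplies androgen, so cells of both lines were exposed to it in these samples. The comparison shows what differs between a resistant line and its parent when the drug was not added.

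Reads were counted per gene, and levels are given as CPM, read counts scaled to a fixed normalised library size, or as FPKM, which also divides by transcript length. Between 13170504 and 18194061 reads fell on genes in the MR49F libraries and between 15408804 and 16701167 in the V16D libraries. MR49F replicate 1 stood apart from the other MR49F libraries, with a chi-square per degree of freedom of 9.87 and 11.6 against replicates 2 and 3, which differed from each other by 2.24. Both lines held the markers of luminal prostate cells. The 10 luminal markers, KLK3, KRT8 and HOXB13 among them, summed to 1609 to 1632 FPKM in V16D and 2206 to 2269 FPKM in MR49F. Of the basal markers 5 of 8, KRT5 and TP63 included, of the fibroblast markers 7 of 10 and of the leukocyte markers 8 of 10, PTPRC included, were under 0.1 FPKM in all 6 libraries. The 3 lists summed to at most 1.07, 1.72 and 10.8 FPKM in a library. Of the 8 endothelial markers 4, CDH5, KDR, TEK and TIE1, were under that level, and the list summed to 14.4 to 16.7 FPKM in V16D and 20.5 to 25.4 FPKM in MR49F. FPKM over all genes summed to 509791 to 533971 in the V16D libraries and 611911 to 800845 in the MR49F libraries. FPKM is therefore not on the same scale in the 2 lines, and the sums above are not corrected for that.

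At baseline the lines differed at most of the genes they expressed. Of 14013 genes tested with edgeR, 4470 were higher and 4459 lower in MR49F at a Benjamini-Hochberg adjusted p of at most 0.05, which is 63.7% of all genes tested (31.9% higher and 31.8% lower). Most of these differences were small. The median absolute log2 fold change of the called genes was 0.50, and 7483 of them, 83.8%, differed by less than 2-fold. At least 2-fold apart were 644 genes higher in MR49F (4.60%) and 802 lower (5.72%), 10.3% together, and in 1438 of these 1446 the 3 replicates of one line did not overlap those of the other, as was so for 68.2% of all genes tested. The count and its balance depended on the scale and the filter, with 462 higher and 498 lower when at least 10 counts were required in every sample, 458 and 457 by limma on log2(FPKM + 0.1), and 301 and 265 on log2(FPKM + 1). At least 4-fold apart were 199 genes higher and 238 lower. The sources leave unclear whether the replicates were wells of a single culture. If so, the spread behind each p-value is technical.

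**Figure D1:**
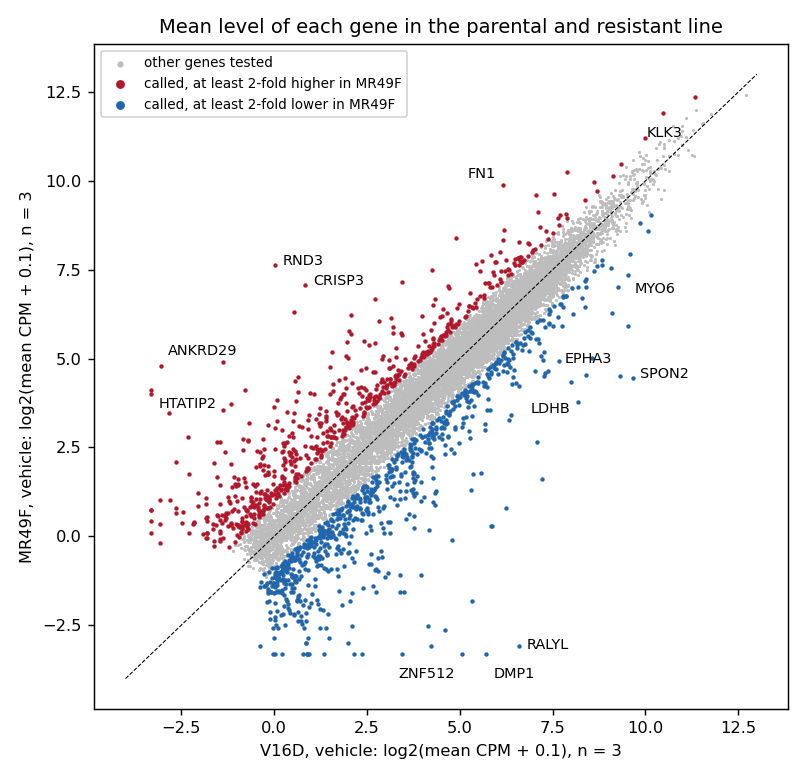
Mean level of each gene tested in V16D (horizontal) and MR49F (vertical) with vehicle, as log2(mean CPM + 0.1) of 3 libraries, with genes called and at least 2-fold higher in MR49F in red, lower in blue, and equal levels on the dashed line. Most genes lie near the line, while RND3 and CRISP3 lie far above it and DMP1, ZNF512 and SPON2 far below it.

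The difference also moved with the base composition of the transcripts. When genes were put into 5 equal bins by the GC content of their transcripts, the median log2 fold change ran from -0.22 in the bin with the lowest GC content to 0.33 in the highest, and by transcript length from 0.14 in the bin of the shortest to -0.12 in the longest. GC content and length thus moved with small differences between the lines, and the part of composition in them was not tested. A fit with offsets for GC content and length is given beside some of the gene groups below. In it 534 genes were at least 2-fold higher and 769 lower.

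Some genes were read in one line and at or near 0 in the other. With at least 5 CPM on average in one line and under 0.2 CPM in every library of the other, 5 genes were gained in MR49F (0.0357% of the genes tested) and 8 were lost (0.0571%). The gained genes were HTATIP2, DNAJC15, ANKRD29, HPGD and OSBPL7, and the lost genes were DMP1, ZNF512, RALYL, NAA11, FUOM, SORBS2, MEST and LRRC7. These counts depend on the rule. All 13 genes also met a rule in FPKM, at least 1 FPKM against under 0.05 FPKM in every library, but that rule held for 100 gained and 64 lost genes, and a limit of 0.5 CPM in place of 0.2 CPM gave 11 gained and 12 lost. The counts by FPKM carry the scale difference between the lines given above. The choice of these genes fixes their direction, so their values are a description.

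The gained and lost genes can be shown with the DNA before their annotated start sites. Start sites were not mapped in these samples, and why a gene had no reads in a line was not tested. RefSeq promoter sequences (GRCh38.p14) were matched for 11 of the 13, and 4 are printed for the clearest cases, 2 genes with no read in V16D and 2 with no read in MR49F. The 250 bases before the start site are given 5′ to 3′ on the strand of the gene, with each CG dinucleotide in capitals.

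HTATIP2 (gained in MR49F, chr11:20363464-20363713, + strand): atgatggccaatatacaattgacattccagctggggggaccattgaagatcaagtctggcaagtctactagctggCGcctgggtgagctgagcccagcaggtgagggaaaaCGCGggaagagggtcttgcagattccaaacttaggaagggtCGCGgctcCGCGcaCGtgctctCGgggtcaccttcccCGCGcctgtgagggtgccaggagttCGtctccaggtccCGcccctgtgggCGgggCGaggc

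DNAJC15 (gained in MR49F, chr13:43023336-43023585, + strand): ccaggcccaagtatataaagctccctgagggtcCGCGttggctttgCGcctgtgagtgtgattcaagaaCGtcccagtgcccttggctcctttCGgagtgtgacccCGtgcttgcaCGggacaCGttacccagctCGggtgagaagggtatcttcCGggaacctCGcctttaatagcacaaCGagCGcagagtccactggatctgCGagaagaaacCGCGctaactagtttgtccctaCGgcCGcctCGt

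ZNF512 (lost in MR49F, chr2:27582792-27583041, + strand): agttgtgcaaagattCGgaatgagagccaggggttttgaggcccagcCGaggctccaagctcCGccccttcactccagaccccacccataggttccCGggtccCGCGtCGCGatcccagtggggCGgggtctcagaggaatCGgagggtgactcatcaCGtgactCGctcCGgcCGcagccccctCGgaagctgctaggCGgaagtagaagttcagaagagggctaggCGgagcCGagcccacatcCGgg

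DMP1 (lost in MR49F, chr4:87650030-87650279, + strand): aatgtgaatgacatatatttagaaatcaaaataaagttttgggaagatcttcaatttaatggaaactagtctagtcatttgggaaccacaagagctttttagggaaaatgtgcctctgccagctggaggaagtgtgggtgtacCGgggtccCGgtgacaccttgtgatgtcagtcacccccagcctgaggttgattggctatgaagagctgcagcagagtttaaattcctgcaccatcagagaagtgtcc

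HTATIP2, DNAJC15 and ZNF512 had 15, 19 and 19 CG dinucleotides in this window, and DMP1 had 2. The ratio of observed to expected CG was 0.643, 0.917 and 0.734 for the first 3 and 0.167 for DMP1. Among all 10872 tested genes with a promoter in the table, 79.0% had a ratio of at least 0.6 in a window of the same length. That share was 65.9% of the 461 genes at least 2-fold higher in MR49F with a promoter, 63.3% of the 603 at least 2-fold lower, and 83.5% of the 6011 called genes that differed less. Genes with large differences in either direction therefore had promoters poor in CG more often than the genes with small ones, as a description. No methylation was measured in these samples.

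HTATIP2 (GRCh37 chromosome 11, 20385231 to 20405328), which encodes an oxidoreductase-like protein linked to apoptosis, had 252, 290 and 214 reads in the MR49F libraries (18.7, 16.1 and 16.5 CPM) and none in any V16D library. DNAJC15 (chromosome 13, 43597339 to 43688349), a co-chaperone of the inner mitochondrial membrane, had 222, 259 and 215 reads and again none in V16D. Against a floor of 3 reads over the V16D libraries, HTATIP2 was at least 279-fold and DNAJC15 at least 257-fold higher in MR49F. Both genes were also without a read in the 3 V16D samples with enzalutamide. Both were read in all 18 MR49F samples in charcoal-stripped serum, JQ-1 samples included, at 4.38 to 8.61 FPKM and 2.74 to 4.36 FPKM. Their levels in stripped serum with DHT were close to those with vehicle, at 8.12 ± 0.717 FPKM with vehicle and 7.26 ± 0.0547 FPKM with DHT (SD, n = 3) for HTATIP2. Both were also read in all 3 MR49F samples with enzalutamide, so the transcripts were read in every MR49F sample of the series, and no read of either was counted in a V16D sample.

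ANKRD29 (chromosome 18, 21178890 to 21242875) had 25.9, 25.4 and 31.7 CPM in MR49F and a single read over the V16D libraries, a ratio of 1347 with a 95% counting interval of 242 to 53196. OSBPL7 (chromosome 17, 45884738 to 45899169), an oxysterol-binding protein, had 6.91, 7.68 and 6.07 CPM in MR49F and 5 reads in all in V16D. HPGD (chromosome 4, 175411326 to 175444305), the enzyme that inactivates prostaglandins, had 11.2, 9.97 and 11.8 CPM in MR49F and 2 reads in all in V16D. HPGD also responded to androgen in MR49F, with 0.569 ± 0.0241 FPKM with vehicle and 6.77 ± 0.508 FPKM with DHT (SD, n = 3) in stripped serum (log2 difference on the FPKM + 1 scale 2.31, adjusted p = 8.80e-09, limma). The V16D cells were in full serum, which holds androgen. No V16D library with enzalutamide held an HPGD read, but the drug blocks the response to androgen. The part of androgen in the HPGD difference was not tested. ANKRD29 went the other way, with 17.4 ± 0.556 FPKM with vehicle and 5.23 ± 0.477 FPKM with DHT (SD, n = 3).

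Among the lost genes, DMP1 (chromosome 4, 88571432 to 88585513), which encodes a matrix phosphoprotein of bone and dentin, had 859, 846 and 845 reads in the V16D libraries (54.9, 49.6 and 51.2 CPM) and none in MR49F. ZNF512 (chromosome 2, 27805836 to 27846084), a zinc finger gene, had 521, 551 and 569 reads in V16D and none in MR49F. DMP1 was at least 767-fold and ZNF512 at least 494-fold lower in MR49F. NAA11 (chromosome 4, 80146848 to 80247215), a catalytic subunit for N-terminal acetylation, and FUOM (chromosome 10, 135168662 to 135171529), fucose mutarotase, were also without a read in MR49F, at least 159.8-fold and 74.3-fold lower. The V16D libraries held 10.7, 10.4 and 11.2 CPM of NAA11 and 4.92, 5.46 and 4.67 CPM of FUOM.

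RALYL (chromosome 8, 85095022 to 85834079), an RNA-binding protein gene, was the most abundant of the lost genes, with 99.2, 96.5 and 94.8 CPM in V16D and 1 read in all in MR49F, a ratio of 4298 with a 95% counting interval of 771 to 169750. SORBS2 (chromosome 4, 186506598 to 186877806), an adaptor of the actin cytoskeleton, had 18.6, 18 and 19.4 CPM in V16D and 1 read in MR49F. MEST (chromosome 7, 130126012 to 130146306), an imprinted gene expressed from the paternal copy, had 24.6, 23.7 and 23.9 CPM in V16D and 3 reads in MR49F. LRRC7 (chromosome 1, 70033605 to 70617628), a scaffold protein of the synapse, had 17.9, 16.5 and 18.6 CPM in V16D and 3 reads in MR49F. All 8 lost genes were read in every V16D sample with enzalutamide, and none had more than 6 reads in an MR49F sample with enzalutamide. In the 18 MR49F samples in charcoal-stripped serum, JQ-1 samples included, none exceeded 0.231 FPKM, the highest value of LRRC7.

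**Figure D2:**
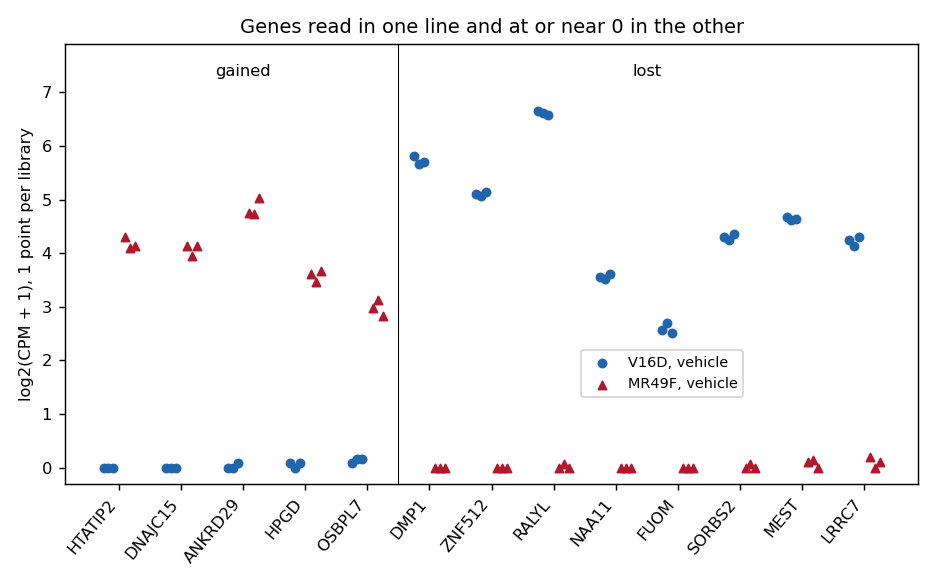
Level of the 5 gained and 8 lost genes as log2(CPM + 1) in each vehicle library, with V16D as blue circles and MR49F as red triangles. The 3 libraries of a line lie close together for every gene, and the other line lies at or near 0, with RALYL the highest in V16D and ANKRD29 the highest in MR49F.

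Beyond the genes at 0, several genes read in both lines differed by more than 5 on the log2 scale. RND3, a small GTP-binding protein that opposes contraction of the actin cytoskeleton, was at 1.09, 0.997 and 0.667 CPM in the V16D libraries and 201, 192 and 204 CPM in the MR49F libraries, a log2 fold change of 7.75 (SE 0.10, adjusted p = 1.71e-13). The lines did not overlap, and RND3 stood below 2 CPM in every V16D library. CRISP3, a secreted protein of seminal plasma, rose from 1.69 CPM in V16D to 135 CPM in MR49F (log2 fold change 6.31, SE 0.10, adjusted p = 1.07e-12). LAMA3, a laminin chain of the basement membrane, rose from 1.34 CPM in V16D to 78.9 CPM in MR49F and EPHA2, an ephrin receptor kinase, from 0.284 CPM in V16D to 11.7 CPM in MR49F, with log2 fold changes of 5.87 and 5.32. CCDC85A, LRRTM3 and FAM65B completed the 12 genes with the largest increase, at 6.67, 5.22 and 5.12.

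In the other direction BCHE, which encodes butyrylcholinesterase, was at 41.0, 39.4 and 39.9 CPM in the V16D libraries and 0.446, 0.111 and 0 CPM in the MR49F libraries. It was near 0 in every MR49F library. PDE10A, a phosphodiesterase for cyclic AMP and cyclic GMP, fell from 57.1 CPM in V16D to 1.12 CPM in MR49F, LPAR3, a receptor for lysophosphatidic acid, from 57.8 CPM in V16D to 1.12 CPM in MR49F and LUZP2 from 147 CPM in V16D to 2.99 CPM in MR49F, with log2 fold changes of -5.68, -5.67 and -5.61. For genes near 0 in one line the size of the fitted change depends on how the fit treats low counts.

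Among the genes at least 2-fold apart, those with the largest differences in mean CPM were different ones. FN1, fibronectin of the extracellular matrix, was at 74.1, 73.2 and 68.2 CPM in the V16D libraries and 977, 937 and 906 CPM in the MR49F libraries, a log2 fold change of 3.71 (SE 0.06, adjusted p = 5.40e-13), and PMEPA1, a membrane protein induced by androgen and by TGF-beta, rose from 235 CPM in V16D to 1219.9 CPM in MR49F (2.38, SE 0.05, adjusted p = 7.72e-12). FTH1, the heavy chain of the iron store ferritin, was at 1418, 1461 and 1361 CPM in the V16D libraries and 4760.1, 3513 and 3355 CPM in the MR49F libraries, and MTRNR2L2, a nuclear copy of a mitochondrial ribosomal RNA segment, at 2610.2, 2543 and 2524 CPM in the V16D libraries and 7098, 4474 and 4166 CPM in the MR49F libraries. For these last 2 genes MR49F replicate 1 was well above replicates 2 and 3, although all 3 lay above V16D. FTH1 and MTRNR2L2, like MTRNR2L8 (log2 fold change 1.20), have near-identical copies elsewhere, so their counts are uncertain. RPLP1, a ribosomal stalk protein, rose from 654 CPM in V16D to 1410.3 CPM in MR49F.

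The largest falls in mean CPM among genes at least 2-fold apart were in SPON2, TBL1XR1, NCAM2, EPHA3, RASSF3 and MYO6. SPON2, a secreted spondin of the extracellular matrix, was at 794, 832 and 809.9 CPM in the V16D libraries and 22.9, 22.5 and 19.5 CPM in the MR49F libraries (log2 fold change -5.23, SE 0.07, adjusted p = 1.71e-13). EPHA3, an ephrin receptor kinase like EPHA2, was at 638, 623 and 638 CPM in the V16D libraries and 21.3, 23.9 and 23.1 CPM in the MR49F libraries, so that EPHA3 was the more abundant of the 2 receptor kinases in V16D and still above EPHA2 in MR49F on the CPM scale, which is not scaled to length. NCAM2, a neural cell adhesion molecule, fell from 745 CPM in V16D to 60.1 CPM in MR49F (-3.64), and TBL1XR1, a subunit of the NCoR and SMRT corepressor complexes, from 1075 CPM in V16D to 385 CPM in MR49F (-1.48). MYO6, a myosin that moves towards the minus end of actin filaments, fell from 734 CPM in V16D to 164 CPM in MR49F (-2.17) and RASSF3 from 1134 CPM in V16D to 528 CPM in MR49F (-1.10).

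Factors that work with androgen differed little or in both directions. FOXA1 and HOXB13, which open chromatin at androgen-regulated genes, did not pass the test (-0.06 and 0.06). The corepressor and coactivator NRIP1 fell from 141 CPM in V16D to 43.1 CPM in MR49F (-1.70), the coactivator NCOA1 was at -0.64, and the pioneer factor GATA2 was higher at 0.62. ETV5 was higher at 1.10 from under 1 CPM in both lines, a call that did not pass in the DESeq2 Wald test (adjusted p = 0.0560).

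The classical androgen-induced genes did not move as a block. Of 50 such genes, all of them tested, 22 were higher (44%) and 23 lower (46%) in MR49F, beside 31.9% and 31.8% of all genes. Their median log2 fold change was -0.12. With the offsets for GC content and length the counts were 23 and 21 and the median was 0.11, so the sign of the median depended on the correction. At least 2-fold apart were 7 genes higher and 2 lower, 18% together, beside 10.3% of all genes. KLK3 (chromosome 19, 51358171 to 51364020) was at 907, 914 and 912 CPM in the V16D libraries and 1954, 1717 and 1756 CPM in the MR49F libraries, a log2 fold change of 0.99 (SE 0.05, adjusted p = 2.50e-08). TMPRSS2 (chromosome 21, 42836227 to 42903043), a membrane serine protease, was at 347, 337 and 331 CPM in the V16D libraries and 530.1, 502 and 496 CPM in the MR49F libraries, a log2 fold change of 0.59 (SE 0.05, adjusted p = 5.14e-07). Both were higher in MR49F with no overlap.

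The largest increases were in HPGD, described above, and in ADAM7, a membrane protein of the epididymis, at 4.47, 3.93 and 4.0 CPM in the V16D libraries and 72.4, 75 and 78.8 CPM in the MR49F libraries (log2 fold change 4.19, SE 0.08, adjusted p = 2.93e-12). KLK2, the kallikrein gene next to KLK3, was at 137, 134 and 139.7 CPM in the V16D libraries and 534, 568 and 560.4 CPM in the MR49F libraries (2.02), a larger difference than that of KLK3. Against these, the transcription factor MAF was at 128, 131 and 131 CPM in the V16D libraries and 24.8, 24.5 and 26.1 CPM in the MR49F libraries (-2.37, SE 0.05, adjusted p = 1.38e-11). MAF is induced by androgen and was nonetheless lower in every MR49F library.

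**Figure D3:**
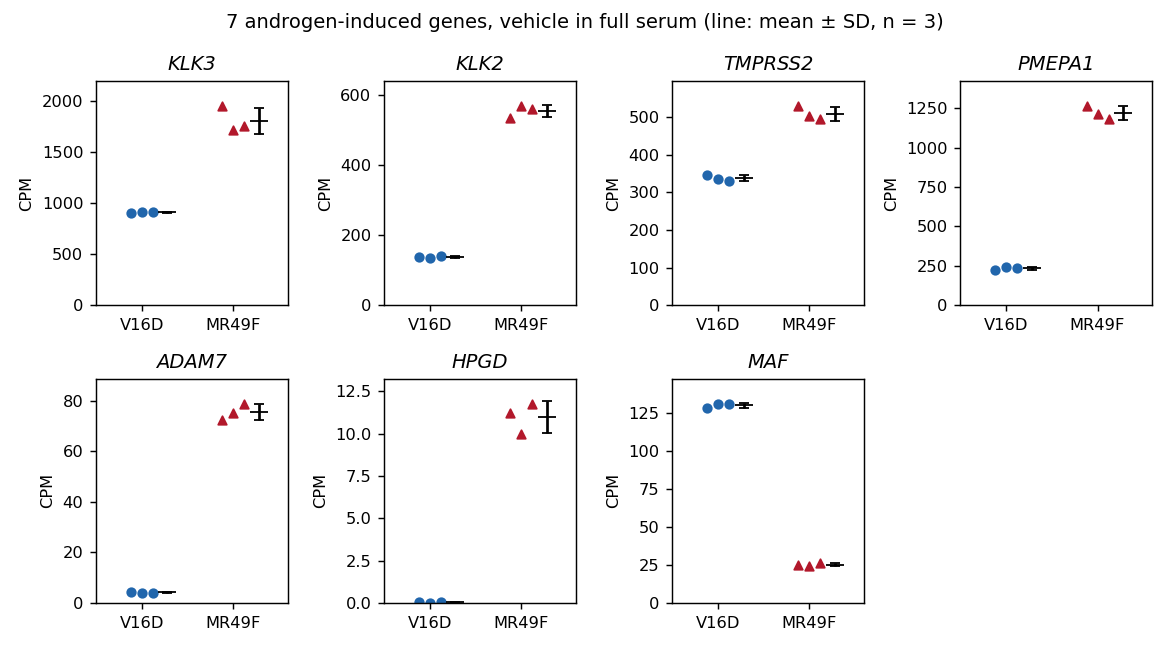
CPM of 7 androgen-induced genes in each V16D (blue) and MR49F (red) vehicle library, with the mean ± SD of 3 libraries beside the points, on axes that start at 0. KLK3, KLK2, TMPRSS2, PMEPA1, ADAM7 and HPGD are higher in MR49F, and MAF is lower.

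Genes that DHT moved in other MR49F samples also lay on both sides. DHT raised 399 genes (3.28%) and lowered 469 (3.85%) by at least 2-fold in MR49F in charcoal-stripped serum (7.13% of the genes tested there, limma on log2(FPKM + 1)), in libraries that the line comparison does not use. Of the 381 DHT-increased genes tested between the lines, 162 were higher and 144 lower in MR49F, with a median of 0.04 and quartiles of -0.38 and 0.51. Of the 438 DHT-decreased genes 176 were higher and 132 lower, with a median of 0.09 and quartiles of -0.33 and 0.66. The medians lay near 0. Called either way were 80.3% and 70.3%, beside 63.7% of all genes tested. The shares at least 2-fold apart were 18.9% and 25.1%, beside 10.3%. Genes of at least 1 FPKM only with DHT, or only with vehicle, could enter the sets. Both sets come from MR49F alone, so genes not expressed in MR49F, such as the lost genes, could enter neither. Their balance and shares are thus not directly comparable with those of all genes. The increased set gave 13.8% to 14.2% with a DHT replicate left out. The decreased set gave 21.4% to 21.9% with a vehicle replicate left out. By edgeR on counts the shares were 13.4% and 19.8%. Only 5.31% to 7.51% of the uniquely aligned reads of these stripped-serum libraries fell on genes, so that fit rests on few reads. The difference from all genes was not tested.

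With enzalutamide present the lines parted at these genes. The 50 androgen-induced genes had a median log2 fold change between the lines of 0.88, with 40 higher and 7 lower in MR49F. These 6 samples share no library with the vehicle comparison, and 37.0% of all genes tested in them were higher and 37.1% lower. KLK3 differed by 2.78 and TMPRSS2 by 2.87 on the log2 scale, against 0.99 and 0.59 with vehicle, and the interaction of line and drug was 1.79 (adjusted p = 4.90e-14) and 2.28 (adjusted p = 4.40e-16, edgeR). Over all genes tested 6.95% passed the interaction test, 4.19% with a positive and 2.76% with a negative value.

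Genes that androgen represses went both ways as well. Of 8 tested, 3 were higher and 3 lower (37.5% each, beside 31.9% and 31.8% of all genes). They ran from BCHE at -7.73 to CAMK2N1, an inhibitor of a calcium-dependent kinase, at 3.06. Among 39 genes of steroid synthesis and inactivation only 19 had enough reads to be tested, with 5 higher (26.3%) and 6 lower (31.6%). AKR1C2, which reduces DHT to a weaker androgen, rose from 0.183 CPM in V16D to 2.0 CPM in MR49F (3.40, SE 0.34, adjusted p = 3.65e-06), and SULT2B1, a hydroxysteroid sulfotransferase, from 2.56 CPM in V16D to 9.31 CPM in MR49F (1.85). AKR1C2 belongs to a family of near-identical genes, and its count is uncertain. CYP3A5, which hydroxylates testosterone, fell from 3.26 CPM in V16D to 0.663 CPM in MR49F (-2.21), and HSD17B10 was higher at 0.89.

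The gene groups with the most one-sided differences were those of cell division and of the ribosome. Of 62 mitosis genes, 43 (69.4%) were lower and 5 higher in MR49F, beside 31.8% lower among all genes tested, and their median log2 fold change was -0.40. Of 58 DNA replication genes, 36 (62.1%) were lower and 4 higher, with a median of -0.25. Of 75 genes for proteins of the cytosolic ribosome, 68 (90.7%) were higher and 2 lower, with a median of 0.58. Without MR49F replicate 1 the counts were 44 mitosis and 41 replication genes lower and 72 ribosomal protein genes higher. With the offsets for GC content and length the medians kept their direction, at -0.28, -0.27 and 0.52.

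Within the mitosis genes the differences were modest, and only TTK, a kinase of the spindle checkpoint, was at least 2-fold lower, from 69.3 CPM in V16D to 31.1 CPM in MR49F (-1.15, SE 0.06, adjusted p = 1.23e-08). TTK lies in the low stretch of chromosome 6 described below. DLGAP5, SGOL1 and KIF15, which act on the spindle and on chromatid cohesion, were at -0.82, -0.81 and -0.81. Among the replication genes ORC3 and PRIM2, a subunit of the origin recognition complex and one of primase, were at -1.59 and -1.22, RFC3, of the clamp loader, at -1.01 and POLE2, of polymerase epsilon, at -1.0. ORC3 and PRIM2 are also on chromosome 6. Among the regulators of the first gap phase, CDK6 was at 31.2, 30.7 and 32.0 CPM in the V16D libraries and 4.76, 7.68 and 5.61 CPM in the MR49F libraries (log2 fold change -2.35, SE 0.12, adjusted p = 2.06e-08), and the inhibitor CDKN1A, or p21, at 47.9, 48.2 and 44.4 CPM in the V16D libraries and 173, 178 and 174 CPM in the MR49F libraries (1.90, SE 0.05, adjusted p = 5.51e-11). CDKN2C, another inhibitor, and RBL1, a relative of the retinoblastoma protein, were lower at -0.96 and -0.73.

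Of the ribosomal protein genes RPL31, RPL17, RPLP1 and RPL10 differed most, at 1.68, 1.24, 1.11 and 1.07. RPL31 was at 98.9, 96.9 and 95.8 CPM in the V16D libraries and 232, 321 and 382 CPM in the MR49F libraries, which is a wide spread in MR49F with replicate 1 the lowest, and all 3 values were more than 2-fold above V16D. Over the list, MR49F replicate 1 had a median -0.13 log2 units from the mean of replicates 2 and 3. Many ribosomal protein genes have processed copies in the genome, which makes single values uncertain.

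**Figure D4:**
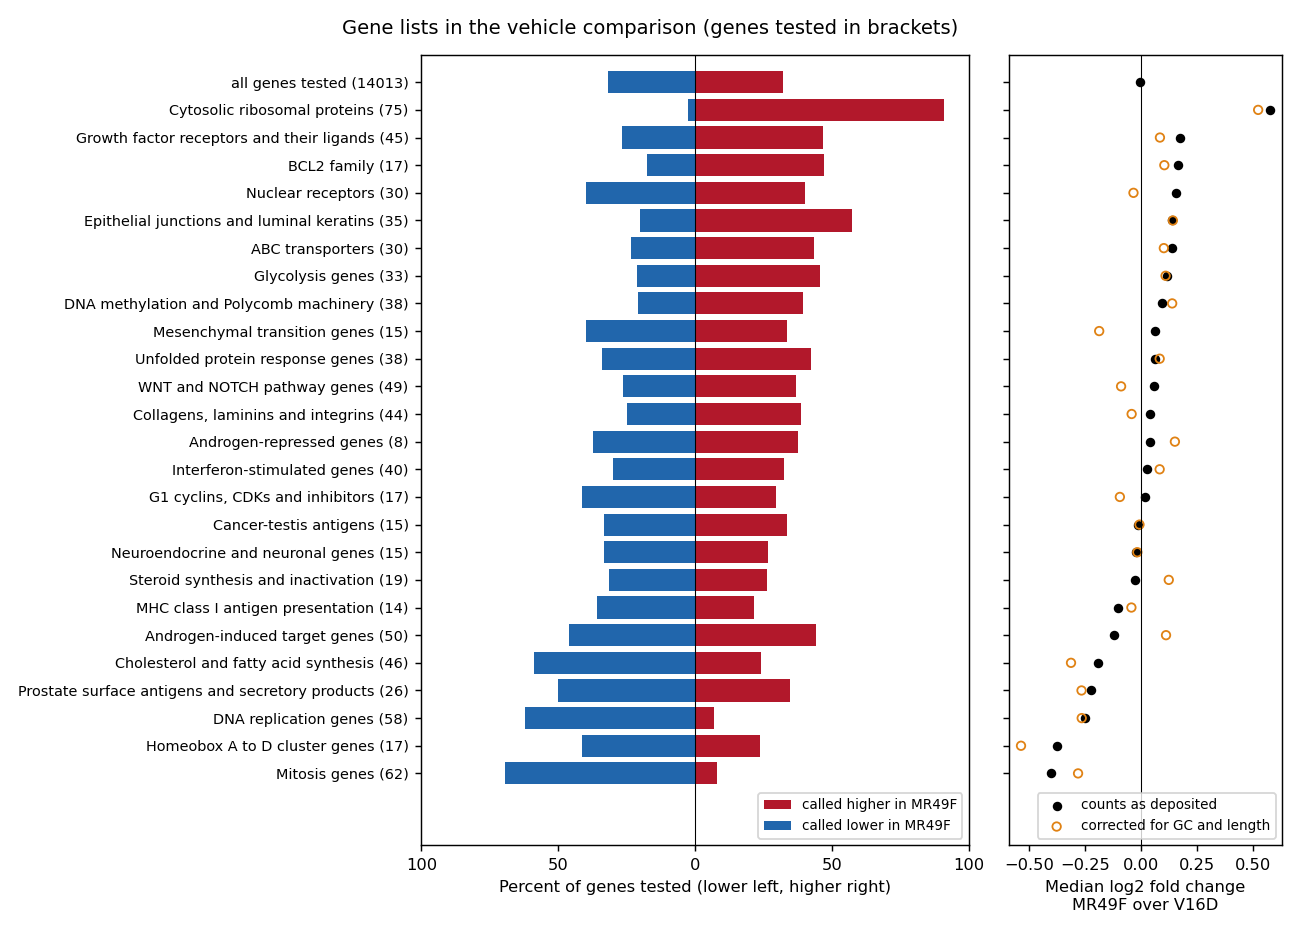
Left, percent of the genes tested in each list that were called higher (red, to the right) or lower (blue, to the left) in MR49F. Right, median log2 fold change of the list from counts as deposited (black) and after correction for GC content and length (open orange). Ribosomal proteins stand at the top with a median of 0.58 and mitosis genes at the bottom with -0.40, while the androgen-induced genes lie near 0.

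Genes of epithelial junctions and luminal keratins were more often higher in MR49F, with 20 higher and 7 lower of 35 tested (57.1% higher and 20% lower, beside 31.9% and 31.8% of all genes) and a median of 0.14. The tight junction genes CLDN3 and TJP1 and the epithelial transcription factor OVOL1 were at 1.31, 1.02 and 1.26, whereas DSC2, a desmosomal cadherin, fell from 310.4 CPM in V16D to 104 CPM in MR49F (-1.57). CDH1, or E-cadherin, fell from 710.5 CPM in V16D to 387 CPM in MR49F (-0.88), and the desmosomal genes DSG2 and DSP were lower at -0.81 and -0.66, these 3 named after their values were seen. Of 34 genes of the epithelial to mesenchymal transition only 15 could be tested, and they divided into 5 higher (33.3%) and 6 lower (40%). Their median of 0.06 became -0.19 under the correction for GC content and length, with 3 higher and 7 lower. FN1 and the TGF-beta receptor TGFBR2 (1.59) were higher, and the repressor SNAI2 (-3.54, SE 0.12, adjusted p = 5.55e-10) and VIM, vimentin (-2.13), were lower. TGFBR2 and VIM were low in both lines, at 0.508 and 2.59 CPM in V16D and 1.53 and 0.597 CPM in MR49F. SNAI2 was at 19.9, 19.4 and 21.0 CPM in the V16D libraries and 2.01, 1.5 and 1.69 CPM in the MR49F libraries. ZEB1, ZEB2 and CDH2, the usual markers of a mesenchymal state, were among the genes with too few reads to test.

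Neuroendocrine genes were largely silent in both lines, since only 15 of 45 were tested and CHGA and INSM1 were not among them. PEG10, an imprinted gene of retroviral origin, was the exception in size, at 11.4, 10.6 and 10.4 CPM in the V16D libraries and 142, 146 and 139 CPM in the MR49F libraries (log2 fold change 3.72, SE 0.06, adjusted p = 1.16e-12). SYT4, a synaptotagmin, rose from 389 CPM in V16D to 999 CPM in MR49F (1.36), SYP, synaptophysin, was at 0.89 and SOX11 was lower at -1.19. Of the 15 genes 4 were higher (26.7%) and 5 lower (33.3%), beside 31.9% and 31.8% of all genes.

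Nuclear receptors showed their large differences in one direction. Of 30 tested, 12 were higher and 12 lower (40% each, beside 31.9% and 31.8% of all genes). At least 2-fold apart were 0 higher and 7 lower, beside 4.60% and 5.72% of all genes. The median of the list was 0.16. Under the correction for GC content and length it was -0.03, with 7 higher and 12 lower. RARB, the retinoic acid receptor beta, fell from 7.66 CPM in V16D to 0.964 CPM in MR49F (-2.97, SE 0.17, adjusted p = 3.34e-08). RORB, RORA and NR5A2 were at -2.80, -1.87 and -1.57, all from under 5 CPM in V16D. NR3C1, the glucocorticoid receptor, had too few reads in these 6 libraries to be tested.

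The homeobox genes of the A to D clusters, which set position along the body axis, differed gene by gene. Of 17 tested, 4 were higher (23.5%) and 7 lower (41.2%), with 4 and 6 at least 2-fold apart. Over all genes tested the shares were 31.9% and 31.8%, and 4.60% and 5.72% by at least 2-fold. After the correction for GC content and length 4 were higher and 10 lower. HOXA3, HOXA4, HOXA5, HOXA6 and HOXA10 were lower, at -3.85, -3.54, -2.56, -2.63 and -1.11, and formed an unbroken run of neighbours on chromosome 7 from 27145803 to 27219880. HOXD13 and HOXB6 were higher at 2.78 and 2.71. HOXA5 was at 7.28, 6.81 and 7.82 CPM in the V16D libraries and 0.669, 1.67 and 1.23 CPM in the MR49F libraries, and the other genes of the run were under 5 CPM in V16D.

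Antigens of the prostate cell surface and secretory products divided into 9 higher (34.6%) and 13 lower (50%) of 26 tested. Over all genes tested the shares were 31.9% and 31.8%. TMEFF2, a membrane protein with follistatin domains, was at 353, 332 and 335 CPM in the V16D libraries and 24.3, 20.5 and 24.0 CPM in the MR49F libraries (log2 fold change -3.90, SE 0.07, adjusted p = 1.39e-12). MSMB, a major protein of seminal plasma, was lower at -1.81 from 1.37 CPM, and KLK2 was the largest increase of the list. FOLH1, which encodes prostate-specific membrane antigen, fell from 695 CPM in V16D to 416 CPM in MR49F (-0.74, SE 0.04, adjusted p = 3.52e-08), while ACPP, prostatic acid phosphatase, rose from 25.8 CPM in V16D to 56.2 CPM in MR49F (1.12). Cancer-testis antigens, which are silent in most adult tissues, were tested for 15 of 65 genes, 5 higher and 5 lower (33.3% each). MAGEA10 rose from 4.92 CPM in V16D to 25.6 CPM in MR49F (2.38) and CSAG1 from 28.6 CPM in V16D to 59.9 CPM in MR49F (1.07), and MAGEC2 had 2.45 CPM in V16D and no read in MR49F. GAGE2A fell from 1.79 CPM in V16D to 0.0371 CPM in MR49F on counts, but its FPKM was 69.0 in V16D and 55.2 in MR49F, and it shares reads with near-identical copies.

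In the extracellular matrix and its receptors, 17 were higher (38.6%) and 11 lower (25%) of 44 tested collagen, laminin and integrin genes. At least 2-fold apart were 7 and 7. Of all genes tested 31.9% were higher and 31.8% lower, and 4.60% and 5.72% by at least 2-fold. After the correction for GC content and length the list had 13 higher and 15 lower, and its median moved from 0.04 to -0.04. Beside LAMA3, COL9A3 was higher at 2.52. COL12A1, a collagen that binds fibrils, was at 136, 139.5 and 132 CPM in the V16D libraries and 6.10, 6.52 and 6.07 CPM in the MR49F libraries (log2 fold change -4.44, SE 0.07, adjusted p = 5.40e-13), and COL4A6 was lower at -3.25. Of 45 tested growth factor receptors and their ligands 21 were higher (46.7%) and 12 lower (26.7%), and 16 and 12 after the correction. EPHA2 and EPHA3 led the list in opposite directions. EFNB2, a ligand of ephrin receptors, fell from 86.1 CPM in V16D to 22.2 CPM in MR49F (-1.96), and NRG3, a ligand of ERBB4, was higher at 2.81 from 0.188 CPM. Of 49 tested WNT and NOTCH pathway genes 18 were higher (36.7%) and 13 lower (26.5%). After the correction 11 were higher and 14 lower, and the median moved from 0.06 to -0.09. WNT5A, a ligand of the noncanonical WNT pathway, rose from 5.80 CPM in V16D to 41.8 CPM in MR49F (2.85, SE 0.11, adjusted p = 1.83e-09), and the NOTCH targets HES1 and HEY1 were higher at 2.01 and 1.0 while the NOTCH ligand JAG1 fell from 87.8 CPM in V16D to 25.7 CPM in MR49F (-1.77).

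Of 46 genes for cholesterol and fatty acid synthesis, 27 were lower (58.7%, beside 31.8% of all genes) and 11 higher, with a median of -0.19 and of -0.31 after the correction for GC content and length. Without MR49F replicate 1 27 were lower. ELOVL6, an elongase of long-chain fatty acids, fell from 53.7 CPM in V16D to 14.4 CPM in MR49F (-1.90, SE 0.08, adjusted p = 1.94e-09), STARD4, a sterol carrier, from 19.8 CPM in V16D to 6.59 CPM in MR49F (-1.57) and FADS2, a desaturase, from 391 CPM in V16D to 177 CPM in MR49F (-1.14), while ACSL4 was higher at 1.14. In the enzalutamide samples the same list divided into 21 higher and 19 lower, where 37.0% of all genes tested were higher and 37.1% lower.

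Lactate metabolism held one of the clearest single differences. LDHB (chromosome 12, 21788276 to 21910791), the lactate dehydrogenase subunit that favours pyruvate formation, was at 299.9, 289 and 284 CPM in the V16D libraries and 11.7, 14.8 and 14.5 CPM in the MR49F libraries, a log2 fold change of -4.41 (SE 0.08, adjusted p = 1.29e-12). The MR49F libraries were all under 15 CPM and the V16D libraries all above 280. SLC16A3, the lactate exporter MCT4, rose from 0.302 CPM in V16D to 5.11 CPM in MR49F (4.03, SE 0.27, adjusted p = 1.48e-07), HK1, hexokinase, from 101 CPM in V16D to 231 CPM in MR49F (1.19), and SLC2A12, a glucose transporter, fell from 44.8 CPM in V16D to 15.6 CPM in MR49F (-1.53). Of 33 glycolysis genes 15 were higher (45.5%) and 7 lower (21.2%), beside 31.9% and 31.8% of all genes, with a median of 0.12.

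Among the other groups, the unfolded protein response had 16 higher (42.1%) and 13 lower (34.2%) of 38 tested genes, beside 31.9% and 31.8% of all genes. The mannosidase-like EDEM3 was at -1.16, its relative EDEM2 at 0.92, the stress factor DDIT3 at 0.98 and the chaperone DNAJB11 at -0.86. ABC transporters had 13 higher (43.3%) and 7 lower (23.3%) of 30. ABCA12, a lipid transporter, rose from 2.76 CPM in V16D to 26.8 CPM in MR49F (3.28), ABCA1 was at 1.32, and the efflux pump ABCG2 was at -1.40. The BCL2 family had 8 higher and 3 lower of 17, and 6 higher and 5 lower after the correction for GC content and length. Its median moved from 0.17 to 0.10. Its called genes with the largest change, the proapoptotic HRK, BAK1, BAD and BID, were higher at 1.48, 0.90, 0.70 and 0.59. The other members of the family are not named here. The DNA methylation and Polycomb machinery had 15 higher (39.5%) and 8 lower (21.1%) of 38. RNF2, a ubiquitin ligase of the Polycomb complex, was at -1.13, and the histone demethylase KDM6B at 0.74.

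Interferon-stimulated genes had 13 higher (32.5%) and 12 lower (30%) of 40 tested genes, near the 31.9% and 31.8% of all genes. IRF7, a transcription factor of the interferon response, rose from 3.60 CPM in V16D to 16.1 CPM in MR49F (2.16, SE 0.10, adjusted p = 7.71e-09), TRIM22 and PLSCR1 were at 2.15 and 1.66, and RSAD2 was lower at -1.92. MHC class I antigen presentation had 3 higher (21.4%) and 5 lower (35.7%) of 14. The transactivator NLRC5 was lower at -1.27, HLA-C higher at 0.70, the peptidase ERAP2 lower at -0.69 and the immunoproteasome subunit PSMB10 higher at 0.53. The PSMB10 difference did not pass the test after the correction for GC content and length (adjusted p = 0.337).

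A few genes of the marker lists for other cell types had enough reads to be tested. CD68, a lysosomal protein, was at 1.10, LYZ at 0.87, VWF at -1.78, EGFL7 at 0.62 and ITGB4 at 0.56, the last with an adjusted p of 0.304 after the correction for GC content and length. The 2 fibroblast genes tested, COL1A1 and PDGFRB, did not pass, at -0.23 and 0.32. The part of these markers in the other differences was not tested, and CDH5, PTPRC, KRT5 and TP63 were at or near 0 in every library.

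The genes that differed were not spread evenly over the chromosomes. On the counts as deposited, chromosome 6 had the lowest median log2 fold change, -0.34 over 599 tested genes, and 99 of them (16.5%) were at least 2-fold lower in MR49F, beside 5.72% of all genes tested. Chromosome 3 had a median of -0.26. Chromosome X had the highest median, 0.38 over 479 genes, with 52 (10.9%) at least 2-fold higher, followed by chromosome 19 at 0.23. In the enzalutamide samples, which share no library with these, the medians were -0.36, -0.26, 0.39 and 0.22. With the offsets for GC content and length they were -0.25, -0.20, 0.42 and 0.06, and chromosome 16 was then the lowest of all, at -0.33 from -0.17.

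Within chromosomes the shift was in stretches. Where the median of 31 neighbouring tested genes passed 0.5 on the log2 scale in either direction over at least 10 genes, 17 stretches were found, 8 lower and 9 higher in MR49F, holding 639 of the 13762 tested genes with a position. The rule was chosen after the data were seen, so the stretches are a description. The same fold changes picked them, so many called genes are built into each. Over all genes tested 31.8% were called lower, and 5.72% by at least 2-fold. The longest lay on chromosome 6 from 49431083 to 110199301 (GRCh37), where 107 of 130 genes were called lower and 48 by at least 2-fold, with a median of -0.76, -0.74 with enzalutamide and -0.57 after the correction for GC content and length. It holds COL12A1, MYO6, TTK, ORC3 and PRIM2. Its most extreme window had a median of -1.09, near the 2-fold mark. Another stretch, on chromosome 6 from 153308497 to 167319939, held PDE10A, and there 31 of 39 genes were called lower and 8 by at least 2-fold, with a median of -0.67, -0.70 with enzalutamide and -0.57 after the correction. Between these lay a shorter one, on chromosome 6 from 144261437 to 150039241, where 12 of 19 genes were called lower and 2 by at least 2-fold, with a median of -0.60, -0.52 with enzalutamide and -0.39 after the correction.

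On chromosome 16 from 71879899 to 83853342, 36 of 45 genes were called lower and 12 by at least 2-fold, with a median of -0.78, -0.74 with enzalutamide and -0.75 after the correction. MAF is one of its genes. The shares over all genes tested were 31.8% called lower, and 5.72% by at least 2-fold. On chromosome 19 from 20107867 to 24127961, 22 of 28 genes were called lower and 16 by at least 2-fold, with a median of -1.30, -1.20 with enzalutamide and -1.02 after the correction. These are zinc finger genes of one cluster, which repress retroelements, and their copies are alike enough that reads may be shared or left uncounted. ZNF43 was the most abundant of them that a run of neighbours names and fell from 56.0 CPM in V16D to 11.7 CPM in MR49F (-2.27, SE 0.08, adjusted p = 8.25e-10). ZNF100 fell from 42.5 CPM in V16D to 16.9 CPM in MR49F, and ZNF257 and ZNF729 had a mean of 0.0256 CPM each in MR49F.

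Higher stretches were found on chromosome X (3), on chromosome 19 (3), and 1 each on the short arm of chromosome 11, on chromosome 2 and on chromosome 7. Over all genes tested 31.9% were called higher, and 4.60% by at least 2-fold. On chromosome X from 47077259 to 63425588, 63 of 83 genes were called higher and 12 by at least 2-fold, with a median of 0.61, 0.61 with enzalutamide and 0.53 after the correction. On chromosome X from 151999511 to 153671814, 26 of 32 genes were called higher and 11 by at least 2-fold, with a median of 0.61, 0.57 with enzalutamide and 0.47 after the correction, and RPL10 lies in it. On chromosome 11 from 565657 to 2870335, 31 of 38 genes were called higher and 8 by at least 2-fold, with a median of 0.66, 0.60 with enzalutamide and 0.36 after the correction, and IRF7 lies in it. On chromosome 2 from 95963075 to 101193201, 33 of 42 genes were called higher and 7 by at least 2-fold, with a median of 0.60, 0.66 with enzalutamide and 0.56 after the correction. The stretch on chromosome 7, of 12 genes, had a median of 0.61 and of 0.41 after the correction. The stretches on chromosomes 11 and 19 are rich in GC and had medians of 0.36, 0.31, 0.31 and 0.17 under the correction, while those on chromosomes X and 2 changed less. DNA copy number was not measured in these samples.

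**Figure D5:**
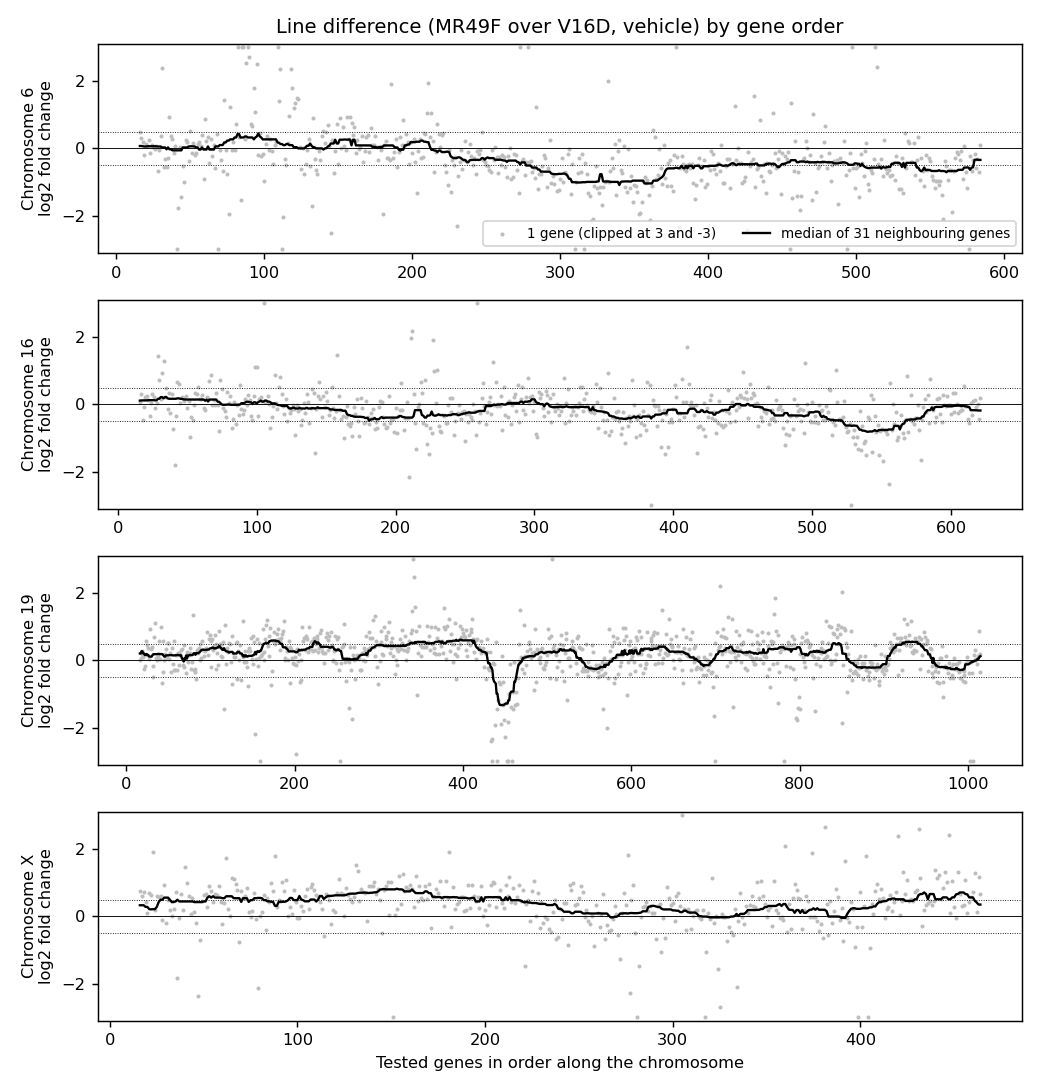
Log2 fold change of MR49F over V16D with vehicle for each tested gene on chromosomes 6, 16, 19 and X (grey points, clipped at 3 and -3), in gene order, with the median of 31 neighbours as a black line and 0.5 and -0.5 dotted. The line drops to -1.09 on chromosome 6, -0.81 on chromosome 16 and -1.33 at the zinc finger cluster of chromosome 19, and rises to 0.82 on chromosome X.

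Single runs were shorter. There were 7 unbroken runs of at least 5 neighbouring tested genes that all differed by at least 2-fold in one direction. Of these, 3 lay in the long low stretch of chromosome 6, with SENP6, a SUMO protease, MYO6, IMPG1 and PHIP at -1.42, -2.17, -2.08 and -1.11 in the first, LCA5, SH3BGRL2, ELOVL4 and TTK at -1.33, -1.14, -1.68 and -1.15 in the next, and ORC3, AKIRIN2, RNGTT, PNRC1, SRSF12, PM20D2 and UBE2J1 at -1.95 to -1.09 in the last. The zinc finger cluster and HOXA were described above. A run of histone genes on chromosome 6 was higher in MR49F, with HIST1H3H at 1.78, HIST1H2AI at 2.37 and HIST1H2BN at 1.34, though these transcripts are mostly not polyadenylated and their levels in poly(A) libraries were under 5 CPM. On chromosome 19 from 49792895 to 49921247 SLC6A16, CD37, TEAD2, DKKL1 and CCDC155 were lower, at -1.72, -1.78, -1.41, -1.08 and -1.45, where DKKL1 did not pass in 3 of the alternative fits.

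Most differences between the lines were found again when enzalutamide was present. In the 6 enzalutamide samples, 5259 genes were higher (37.0%) and 5277 lower (37.1%) in MR49F, 74.1% of the genes tested, of which 712 and 847 by at least 2-fold (11.0% together and 5.95% for the lower genes). Of the 8929 genes called with vehicle, 8877 were tested with enzalutamide, 7980 (89.9%) were called in the same direction and 114 in the opposite one. Of the 1446 genes at least 2-fold apart with vehicle, 1402 were tested with enzalutamide, 1393 of them had the same direction and 1330 were also called in it, while 5 were called in the opposite one. At least 2-fold apart in the same direction in both were 1079 genes, 74.6% of those with vehicle and 69.2% of those with enzalutamide.

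The genes described above were again far apart. RND3 was at 8.84, FN1 at 4.0, CRISP3 at 6.85, SPON2 at -5.09, EPHA3 at -4.58 and LDHB at -4.39 with enzalutamide, on the log2 scale. Only EPHB6 and SLC38A4 were called and at least 2-fold apart in opposite directions, and both are named after their values were seen. SLC38A4, an amino acid transporter, was at 7.73, 8.45 and 8.85 CPM in the V16D libraries and 1.41, 1.39 and 0.846 CPM in the MR49F libraries with vehicle, a log2 fold change of -2.75 (SE 0.17, adjusted p = 8.73e-08), and at 2.86 with enzalutamide, with an interaction of 5.60 (adjusted p = 3.50e-08, edgeR). EPHB6, an ephrin receptor without kinase activity, was at -1.02 and 1.13 (interaction adjusted p = 0.0151). SNAI2 also lost most of its difference, at -0.47 with enzalutamide (interaction adjusted p = 5.77e-05).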

How the data were processed

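Total RNA of 30 samples was made into stranded poly(A) libraries with the Agilent SureSelect kit. Per the labels and the study's methods, the authors aligned reads to hg19 with TopHat2 2.0.9, counted reads per RefSeq gene symbol with HTSeq, and computed FPKM per transcript with Cufflinks 2.1.1, without pooling replicates. Whether the counting used strand is not given in the sources used here, so overlapping and antisense genes may share reads. Both the deposited counts and the deposited FPKM values were used here as they stood. Rows of the count files that name no gene were left out of library sizes. Of the uniquely aligned reads of each vehicle library 73.98% to 77.8% fell on genes.

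Counts were fitted with edgeR 4.0.16 (R 4.3.3): TMM normalisation, filterByExpr with a minimum of 10 counts, and the quasi-likelihood test with Benjamini-Hochberg adjustment over all genes tested. A gene was called at an adjusted p of at most 0.05. The SE is the log2 fold change divided by the square root of F. FPKM values of the charcoal-stripped serum samples, and of the full serum samples as an alternative, were summed per gene and tested with limma 3.58.1 on log2(FPKM + 1), which understates changes of low genes. Their gene counts were not the main measure because few of their reads fell on genes. DESeq2 1.42.0 was another alternative. The test of each interaction of line and drug used all 4 full serum groups in one edgeR fit. The scripts were tested on simulated data. Positions are from GENCODE 44 on GRCh37 coordinates, found for 96.6% of 23710 gene symbols, and the fit with offsets for GC content and transcript length used the 98.2% of tested genes with a value. Counting intervals and floors cover counting error only.

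The samples are named by group and replicate number as labelled. Replicates are called biological in the study's methods, while the labels speak of wells plated together. Same-numbered libraries of the 2 lines did not deviate together, with correlations of 0.0202, -0.0016 and -0.0024, and were not treated as pairs. The 31 gene lists, the comparison and the tests were chosen with earlier results of these data known. Genes were named by a rule: KLK3 and TMPRSS2, then the 12 largest log2 fold changes in each direction among called genes with no overlap and at least 5 CPM, the 6 largest differences in mean CPM in each direction among genes at least 2-fold apart, up to 4 called genes of each list with the largest change, and the genes of runs of neighbours. Some genes that the rule names are not reported here.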

Additional observations from a re-analysis of the deposited data

Results flagged for a closer look

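KLK3, the gene of prostate-specific antigen, stood out because its difference between the lines was not the same with and without drug. It was 0.99 higher in MR49F on the log2 scale with vehicle and 2.78 higher with enzalutamide, and the interaction of line and drug was 1.79 (adjusted p = 4.90e-14, edgeR). All 3 MR49F libraries lay above all 3 V16D libraries with vehicle.

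TMPRSS2, the membrane serine protease, stood out for the same reason, with 0.59 under vehicle, 2.87 under enzalutamide and an interaction of 2.28 (adjusted p = 4.40e-16, edgeR). Across all genes tested for the interaction, 1006 of 14471 passed the test, which is 6.95%. Of these the interaction was positive in 607 and negative in 399. The vehicle groups of this report enter the interaction, so it is not independent of the vehicle differences.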

How the results depend on the processing

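The 8929 genes called between the lines with vehicle stayed within 1.5 times of that count under all alternatives run. The lowest count was 7828, by limma on log2(FPKM + 0.1), and the highest 9783, without MR49F replicate 1, the library that stood apart. With a replicate left out the lowest was 7958, without V16D replicate 1. The 1446 genes at least 2-fold apart numbered 960 with at least 10 counts in every sample, 915 by limma on log2(FPKM + 0.1), 566 on log2(FPKM + 1) and 562 on that scale without a filter, and 1513 to 1592 with a replicate left out. A larger pseudocount shrinks the fold of low genes by its construction, and the strict filter leaves out genes near 0 in one line. With enzalutamide 10536 genes were called and 10107 to 10323 with a replicate left out, and the 1559 at least 2-fold apart numbered 671 by limma on log2(FPKM + 1) and 1622 to 1690 with a replicate left out. The 868 genes that DHT moved by at least 2-fold numbered 1446 on log2(FPKM + 0.1) and 765 to 809 with a replicate left out.

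The 5 gained and 8 lost genes became 100 and 64 by the rule in FPKM, which also admits genes of lower counts, and 0 and 0 with at least 10 counts in every sample, which none can pass. Under 0.5 CPM in place of 0.2 CPM there were 11 gained. With a replicate left out there were 5 to 5 gained and 7 to 9 lost. With the replicate number as a block, a pairing by number only, 8839 genes were called and 1450 were at least 2-fold apart with vehicle, 10571 and 1564 with enzalutamide, and 875 with DHT. Of 177 named genes, 106 were tested in every alternative, and the others were left out of some by a filter or for want of a GC value. In the alternatives that tested them, 170 kept direction and call. ADRA2C, DKKL1, ETV5, HIST1H2AK, ITGB4, LOC100288198 and PSMB10 lost the call in 16 gene and setting pairs, and 0 reversed.

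At these depths a gene with no read in the 3 libraries of a line is below about the level of 3 reads over the group, 0.061 CPM in V16D and 0.0675 CPM in MR49F, which does not show that it is absent. Near-identical genes, such as the ribosomal protein genes with processed copies, MTRNR2L2 and the zinc finger genes of chromosome 19, may have lost or shared reads. Each line is a single line, DNA was not measured here, and all p-values measure the spread between 3 samples.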

Other observations

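Promoters of the genes with the largest differences were poorer in CG than those with smaller ones, as a description. Among genes at least 8-fold higher in MR49F with a promoter in the RefSeq table, 33 of 58 (56.9%) had an observed to expected CG ratio of at least 0.6 in the 250 bases before the start site. Among those at least 8-fold lower, 45 of 87 (51.7%) did, beside 79.0% of all tested genes with a promoter. Of the gained and lost genes with a promoter in the table, 3 of 4 and 4 of 7 did.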
